A study of Mus musculus with 6 samples.

Results

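The 32 genes described here are among the 33 members of the Hox clusters that a promoter array names on its probes, of 16812 genes named in all. Members are genes whose symbol in the array annotation is Hoxa, Hoxb, Hoxc or Hoxd with a number, and those described are 9 from the Hoxa cluster on chromosome 6, 7 from Hoxb on chromosome 11, 8 from Hoxc on chromosome 15 and 8 from Hoxd on chromosome 2. Of the 39 genes of the mouse clusters, the other 6 (Hoxa7, Hoxb2, Hoxb7, Hoxb8, Hoxc4 and Hoxd8) have no symbol on a probe. The genes described had 1301 usable probes. A window takes the mean of a probe and of those up to 500 bp away on either side, and needs 3 probes or more. All 32 had windows, 1282 together. Neighbouring genes of a cluster share promoter sequence: 597 of these windows also list another gene by its RefSeq accession, so the genes of a cluster are not independent observations.

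The experiment was chromatin immunoprecipitation on Agilent promoter arrays (ChIP-chip) in C2C12, mouse myoblasts that fuse to myotubes when serum is withdrawn. In 2 samples, called duplicates in the labels, the cells were infected with a retrovirus that expresses Flag-HA-tagged TEAD4, and in 1 control sample with the empty vector. All were puromycin-selected populations, differentiated for 5 days, fixed in formaldehyde and precipitated with an anti-Flag antibody, and the control vector carries no TEAD4. Each sample was hybridised to 2 array designs, 6 arrays in all, with precipitated (IP) DNA in Cy5 and input DNA in Cy3. The tagged protein came from the vector and not from the cells' own Tead4 gene, and the labels leave unsaid if the duplicates were separate cultures, so their spread may be technical. The arrays measure DNA and not RNA, so neither the state of the cells nor Hox expression was checked here.

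Hox genes encode homeodomain transcription factors that give cells along the body axis and in the limbs their position. Within a cluster the genes stand in the order in which they act from head to tail: low numbers pattern the hindbrain and neck, middle numbers the trunk, and high numbers the lower trunk, tail and distal limbs. Their promoters are rich in CpG and are kept silent or active by Polycomb and trithorax proteins. TEAD4 is a sequence-specific transcription factor that acts with the co-activators YAP and TAZ and takes part in muscle differentiation. A promoter occupied by tagged TEAD4 would give IP over input above that of the rest of the array, and above that of the control.

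All values below are log2 IP over input, centred on each array's median, so that 0 is the typical probe and 1 is 2-fold. Over all 428057 windows the SD was 0.38 and 0.40 in TEAD4 samples 1 and 2, against 1.04 in the control. The control also had the dimmer IP channel at the Hox probes, 1.96 to 2.39 times the local background, where the TEAD4 samples had 3.70 to 7.13 times. The control arrays were scanned before the TEAD4 arrays and, unlike them, read with extended dynamic range, so scan and group cannot be told apart. The part of these differences in the results below was not tested.

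In the TEAD4 samples IP over input reached 2-fold at a few Hox promoters, in the Hoxa and Hoxc clusters. With centred ratios the control was over 2-fold in the same window at 3 of these 4 genes. That level of the control depends on the centring. Without it the control median was -0.24 over Hoxc and -0.12 over Hoxa, against 0.32 and 0.52 with it. The TEAD4 median over Hoxc was 0.19 either way. The 4, of 32, with a window that reached 2-fold over input in each TEAD4 sample were Hoxa10, Hoxc9, Hoxc10 and Hoxc11. That is 12.5% of the genes described, beside 5.20% of all 16509 genes with a window, and 5.94% of the 10432 genes with 22 to 67 windows, the range of these genes but for Hoxa3. Hoxa had 1 such gene of 9 and Hoxc 3 of 8, while Hoxb had 0 of 7 and Hoxd 0 of 8. By windows, 11 of 1282 passed, or 0.858%, against 0.659% of all windows. In the other direction 0 Hox windows were 2-fold below input in the duplicates, which 0.0252% of all windows and 0.327% of all genes were. No test was made of the difference between these shares. With normexp background correction only Hoxa10 passed, with windows of 1000 bp on each side Hoxa10 and Hoxc10, and with at least 5 probes in a window the same 2 genes. With quantile normalization 12 genes passed, and 0 at 3-fold. Of all 16509 genes, 613 passed with normexp and 4608 with quantile normalization, against 859 in the main setting. With windows of 1000 bp on each side 368 of 16599 genes passed, and with at least 5 probes 596 of 15956.

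**Figure D1:**
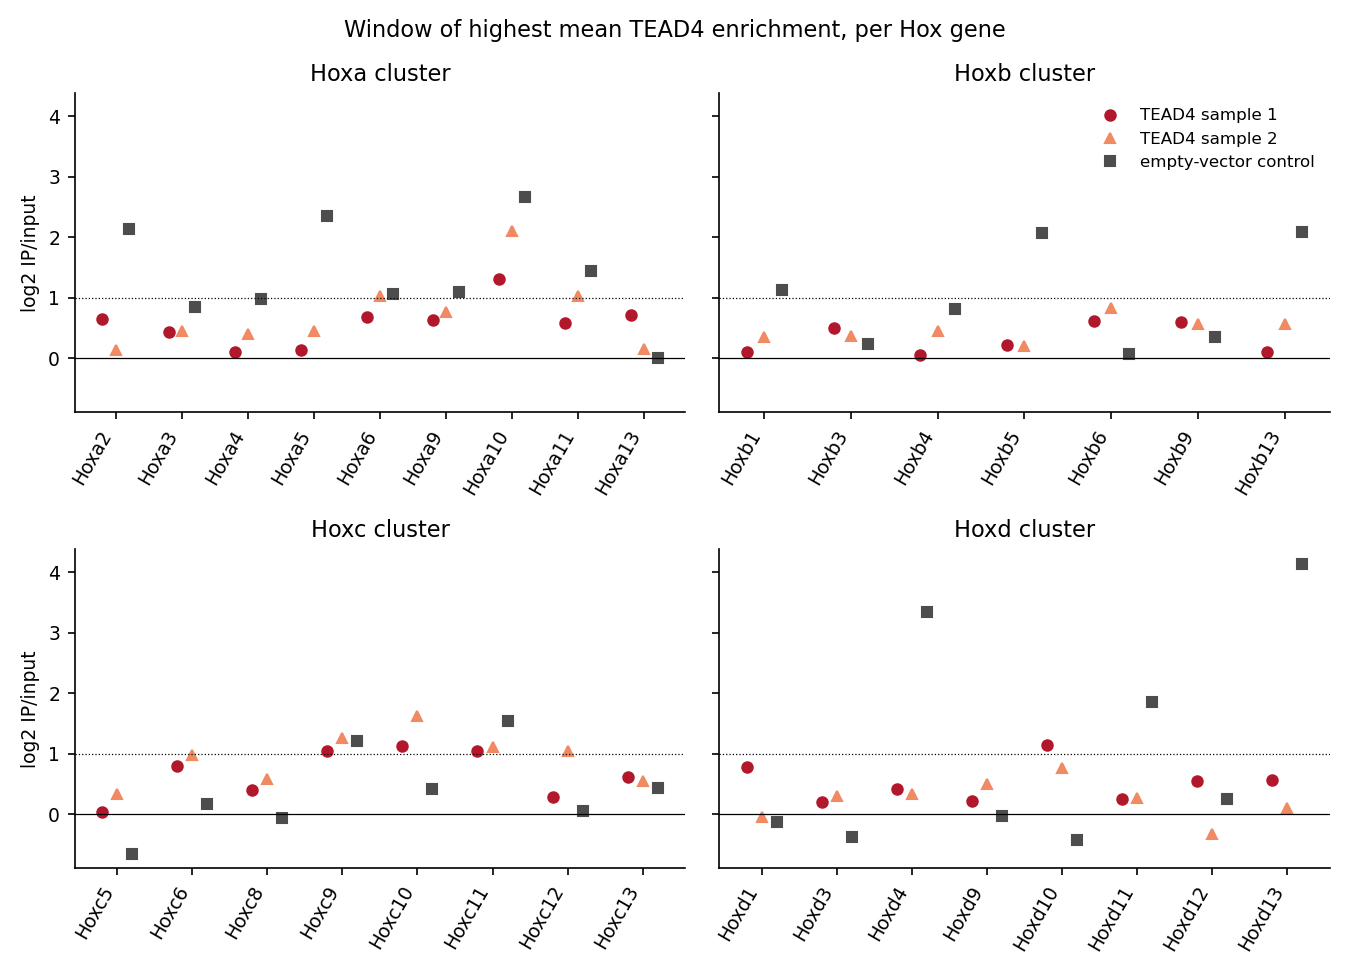
For each Hox gene, log2 IP over input in the window with the highest mean of the TEAD4 samples, with TEAD4 sample 1 (circle), TEAD4 sample 2 (triangle) and the control (square) in that same window, 1 panel per cluster. The dotted line marks 2-fold. Both TEAD4 points lie above it at Hoxa10, Hoxc9, Hoxc10 and Hoxc11, and the control lies above the line too at 3 of these 4, all but Hoxc10. Values are centred on each array's median, and the level of the control depends on that centring.

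Hoxa10, which patterns the lower trunk, the upper hindlimb and the uterus, had the highest mean of any member. Its best window, on chromosome 6 from 52162352 to 52163166 and 1687 bp downstream of the annotated start, stood at 1.31 and 2.10 in the TEAD4 samples, against 2.66 in the control. The mean of 1.70 ± 0.56 (SD, n = 2) is 3.26-fold over input, with an adjusted p of 0.00056 in the limma test of TEAD4 against input. All 5 probes of this window were at least 2-fold over input in both TEAD4 samples, so no single probe carries it. With centred ratios the control was higher than both TEAD4 samples at the same place. In the window centred nearest to its start Hoxa10 had 0.16 and 0.09 in the TEAD4 samples, against 2.10 in the control.

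Farther upstream Hoxa10 had a second block, in which 7 of the 8 windows between -5070 and -3750 bp from the start were at least 1.5-fold over input in both TEAD4 samples. The other, at -4802 bp, had 0.49 and 1.23 in the TEAD4 samples, against 0.11 in the control. Its best window, from 52169097 to 52169883, had 0.73 and 1.36 in the TEAD4 samples, against -0.65 in the control. Here the control was below input while both TEAD4 samples were above it, and the TEAD4 mean minus control, 1.69, was the highest of any Hox gene. TEAD4 sample 1 stayed under 2-fold in this block.

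In the Hoxc cluster the 3 genes over 2-fold are neighbours on chromosome 15. Hoxc10, which acts in the lumbar spinal cord and the hindlimb, had 1.13 and 1.63 in the TEAD4 samples, against 0.42 in the control, at 1231 bp downstream of its start, from 102795716 to 102796328. This window rests on 3 probes, and only 1 of them was 2-fold in both TEAD4 samples. A second stretch across the start, at -195 to 201 bp from it, was better covered, with 6 or 7 probes a window. There its best window had 1.03 and 1.32 in the TEAD4 samples, against 1.03 in the control, from 102794177 to 102795121. Hoxc10 was above 0 in both TEAD4 samples in 94.1% of its windows and below 0 in both in 0% of them. Its adjusted p against input was 0.000597.

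Hoxc9, a gene that sets the thoracic level in spinal motor neurons, had 1.04 and 1.27 in the TEAD4 samples, against 1.21 in the control, at -267 bp from its start, from 102804334 to 102805142 (4 probes, adjusted p = 0.000793). As at Hoxc10, nearly all of its windows, 97.4%, were above 0 in both TEAD4 samples. Hoxc11, a gene of the sacral region and hindlimb, had 1.04 and 1.12 in the TEAD4 samples, against 1.55 in the control, 458 bp downstream of its start, from 102782649 to 102783403 (4 probes, adjusted p = 0.00188). With centred ratios the control lay between the TEAD4 samples at Hoxc9 and was higher than both at Hoxc11. This order depends on the centring of the control. In each of these windows 2 of 4 probes were 2-fold in both TEAD4 samples, and without its highest probe the TEAD4 mean was 0.89 at Hoxc9 and 0.93 at Hoxc11, under 2-fold. The 2-fold windows of Hoxa10, Hoxc9, Hoxc10 and Hoxc11 form 5 separate regions.

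**Figure D2:**
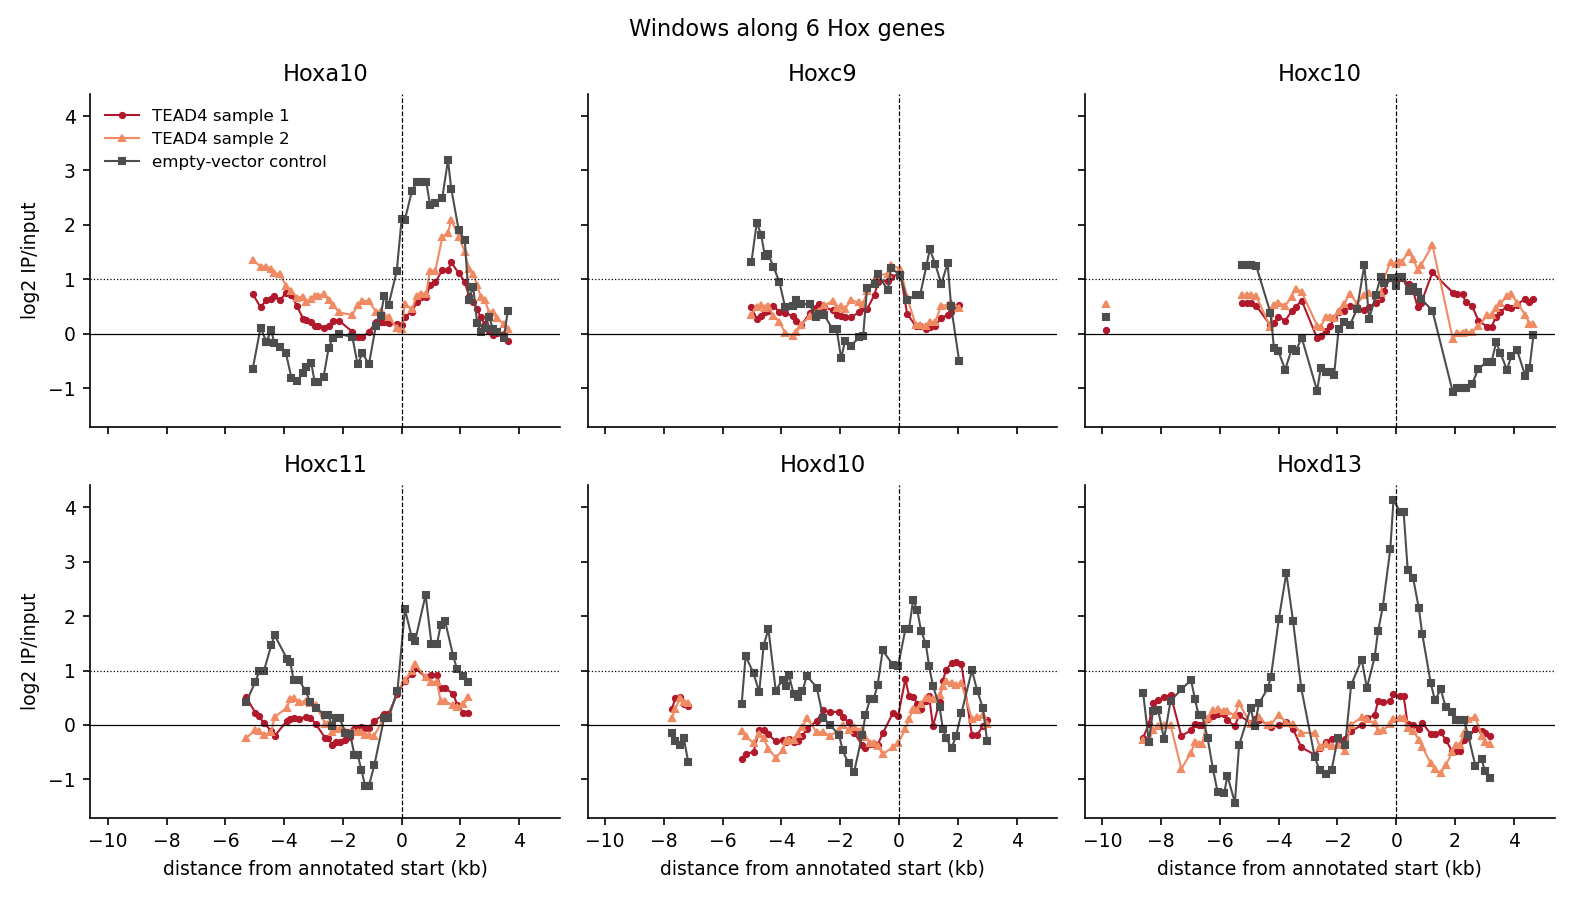
Log2 IP over input of every window along 6 Hox genes, by distance from the annotated start in kb (negative is upstream), for TEAD4 samples 1 and 2 and the control. Lines are broken where no probe lies for over 1000 bp and the dotted line marks 2-fold. At Hoxa10 the TEAD4 samples peak at 1687 bp downstream inside a broader and higher control peak, and at Hoxd13 the control reaches 4.14 near the start while the TEAD4 samples have 0.56 and 0.11.

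Tested with limma, TEAD4 against input called 9 of the 32 genes higher (28.1%, against 24.0% of all genes and 24.6% of those with 22 to 67 windows) and 1 lower (3.13%, against 11.8% of all genes). The share called higher is thus close to that of the whole array. A call takes its direction from the gene's window with the smallest p. By cluster, 3 Hoxa, 1 Hoxb, 4 Hoxc and 1 Hoxd gene were called higher. Beside the 4 genes above, these were Hoxc6 (adjusted p = 0.00622), Hoxd10 (0.00758), Hoxb6 (0.0169), Hoxa6 (0.0243) and Hoxa11 (0.0289). Hoxa10, Hoxa11, Hoxc9, Hoxc10 and Hoxd10 were called higher under all 11 alternative settings in which the test was run. How many of all genes were called higher under all 11 was not counted, so this is not shown to be particular to Hox genes.

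Hoxd10, a gene of the limb and the lumbar spinal cord, came closest to the 2-fold rule in its cluster, with 1.14 and 0.77 in the TEAD4 samples, against -0.42 in the control, 1791 bp downstream of its start. Both TEAD4 samples were above the control, which was below input, and all 6 probes were above 0 in both TEAD4 samples. Hoxc6, a thoracic gene, had 0.80 and 0.98 in the TEAD4 samples, against 0.17 in the control, in a window at -3764 bp from its start. Hoxb6, also a trunk gene, was the highest of the Hoxb cluster with 0.62 and 0.83 in the TEAD4 samples, against 0.06 in the control, at -5418 bp. In these 3 windows both TEAD4 samples exceeded the control, and all 3 lie over 1000 bp from the annotated start. The Hoxb6 window also lists Hoxb7 and Hoxb8 by accession.

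Hoxa6, another trunk gene, had 0.69 and 1.03 in the TEAD4 samples, against 1.06 in the control, at -3289 bp from its start, in a window that also lists Hoxa7 by accession. Hoxa11, which patterns the forearm and lower leg, had 0.59 and 1.03 in the TEAD4 samples, against 1.45 in the control, at -680 bp. At both genes the control was higher than both TEAD4 samples with centred ratios. A lower threshold of 1.5-fold over input in both TEAD4 samples was met by 57 Hox windows (4.45%, against 3.23% of all windows), and these belonged to 10 genes: the 9 called higher and Hoxa9, a gene of the posterior trunk and of blood progenitors, with 0.64 and 0.77 in the TEAD4 samples, against 1.10 in the control.

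The 1 gene called lower than input was Hoxd1, the 3′ gene of its cluster, which acts in sensory neurons (adjusted p = 0.00974). The Hoxd1 window at 2229 bp downstream of the start, on 3 probes, had -0.96 and -0.93 in the TEAD4 samples, against -0.41 in the control. The direction of that call depends on the window: with windows of 1000 bp on each side Hoxd1 was called higher. Its highest window, at -2481 bp, had 0.79 and -0.04 in the TEAD4 samples, against -0.14 in the control, so TEAD4 sample 1 stands alone there. Hox windows at least 1.5-fold below input in both TEAD4 samples numbered 4, 0.312% against 0.884% of all windows, 3 of them at Hoxd1 and 1 at Hoxd4.

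None of the lowest members reached 1.5-fold over input in both TEAD4 samples. In Hoxa these were Hoxa4 and Hoxa5, genes of the neck and upper trunk. The best window of Hoxa4 had 0.11 and 0.41 in the TEAD4 samples, against 0.98 in the control, and that of Hoxa5 had 0.15 and 0.45, against 2.35. Over all its windows Hoxa5 had a median of -0.33 and -0.40 in the TEAD4 samples, against 1.18 in the control. By the TEAD4 mean this is percentile 4.42 of the medians of all genes. In Hoxb, the trunk gene Hoxb5 had 0.22 and 0.21 in the TEAD4 samples, against 2.06 in the control. Hoxb1, which sets the identity of a hindbrain segment, had 0.11 and 0.35 in the TEAD4 samples, against 1.13 in the control. Their neighbours Hoxb9 (0.60 and 0.58 in the TEAD4 samples, against 0.36 in the control) and Hoxb3 (0.51 and 0.37, against 0.24), genes of the rib cage and of the hindbrain, ranked behind Hoxb6 in that cluster and missed the test.

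In Hoxc, the lowest best windows were those of Hoxc5 (0.04 and 0.33 in the TEAD4 samples, against -0.65 in the control) and of the lower-trunk gene Hoxc8 (0.40 and 0.58, against -0.07). In Hoxd they were those of the limb gene Hoxd12 (0.56 and -0.33, against 0.25) and of Hoxd3 (0.19 and 0.31, against -0.37), a gene of the upper neck. The Hoxd3 windows lie 26664 to 34318 bp from its annotated start, so the promoter of Hoxd3 at that start was not measured. Hoxd4, a hindbrain and neck gene with 0.41 and 0.34 in the TEAD4 samples, against 3.34 in the control, ranked second in its cluster behind Hoxd10. The best windows of the remaining genes had TEAD4 means between 0.25 at Hoxb4 and 0.67 at Hoxc12. The value of Hoxc12 (0.29 and 1.05 in the TEAD4 samples, against 0.06 in the control) rests on 1 probe at 3.99 in TEAD4 sample 2.

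By cluster, the median window of the TEAD4 samples was highest over Hoxc and lowest over Hoxd. The median Hoxc window stood at 0.24 and 0.18 in the TEAD4 samples, against 0.32 in the control. The median Hoxa window stood at 0.08 and 0.05 in the TEAD4 samples, against 0.52 in the control. Hoxb had medians of 0.04 and -0.02 in the TEAD4 samples, against 0.65 in the control, and Hoxd had 0.02 and -0.07, against 0.49. The median of all windows of the array was -0.01 in each TEAD4 sample and 0.26 in the control. For the mean of the TEAD4 samples the medians were 0.05 in Hoxa, 0.01 in Hoxb, 0.19 in Hoxc and -0.01 in Hoxd, with -0.02 over the array. Under quantile normalization these medians rose in every cluster, to 0.20 in Hoxa, 0.12 in Hoxb, 0.45 in Hoxc and 0.09 in Hoxd.

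The clusters also differed in the correlation of the duplicates, which depends on the range of the signal as well as on agreement. The SD between the duplicates was 0.26 in Hoxa, 0.24 in Hoxb, 0.21 in Hoxc and 0.26 in Hoxd, with 0.26 over the whole array. A lower r below thus does not mean that the duplicates lay farther apart. Across the windows of a cluster, which overlap and share probes and arrays, Pearson's r between the TEAD4 samples was 0.67 in Hoxa and 0.71 in Hoxc, against 0.26 in Hoxb and 0.37 in Hoxd, with 0.57 over the whole array. The share of windows at least 1.5-fold over input in both TEAD4 samples was 6.61% in Hoxa and 8.44% in Hoxc, against 1.05% in Hoxb and 1.47% in Hoxd. Within the clusters r also varied by gene number: it was -0.20 over Hoxb1 to Hoxb4, against 0.62 over Hoxb5 and Hoxb6 and 0.42 over Hoxb9 and Hoxb13. In Hoxa it was 0.32 over Hoxa2 to Hoxa4, and in Hoxd 0.44 over Hoxd9 to Hoxd13.

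**Figure D3:**
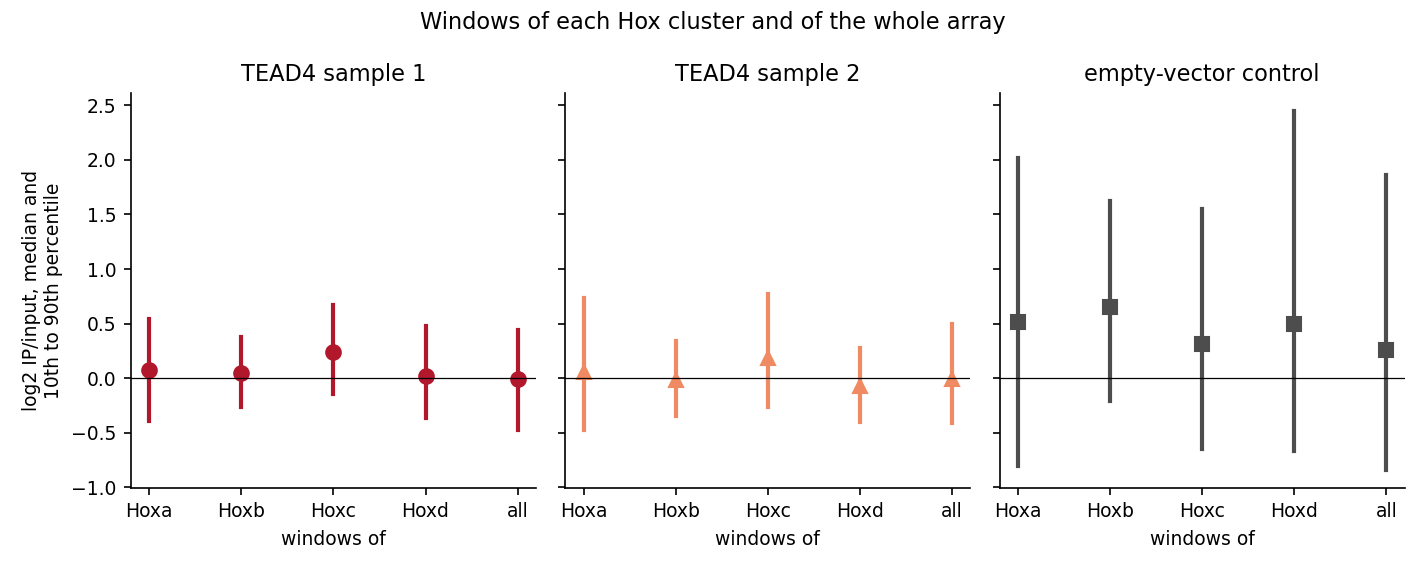
Median (symbol) and 10th to 90th percentile (bar) of log2 IP over input over the windows of each Hox cluster and of the whole array, 1 panel per sample, TEAD4 samples left of the control. The Hoxc medians of 0.24 and 0.18 are the highest in the TEAD4 panels, and the bars of the control are wider in every cluster, up to 2.44 at the 90th percentile in Hoxd.

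Within Hoxa and Hoxc the genes numbered 9 to 13 had, as a group, higher medians than those with lower numbers. No test of this order was made, and the genes at the end were not high: by the median of the TEAD4 mean, Hoxa13 had -0.06, Hoxc12 had 0.10 and Hoxc13 had 0.03, while Hoxc6 had 0.36. The genes numbered 9 to 13 of Hoxa had a median window of 0.24 and 0.34 in the TEAD4 samples, against 0.49 in the control, and 12.9% of their windows were at least 1.5-fold in both TEAD4 samples. The genes Hoxa2, Hoxa3 and Hoxa4 together had medians of -0.11 and -0.22 in the TEAD4 samples, against 0.20 in the control, with 0% of windows at 1.5-fold. Hoxa5 and Hoxa6 together had medians of -0.05 and -0.04, against 1.06. In Hoxc the genes numbered 9 to 13 had 0.32 and 0.29 in the TEAD4 samples, against 0.43 in the control, and those numbered 5 to 8 had 0.10 and -0.02, against 0.18. In Hoxd the posterior genes did not stand out, with 0.08 and -0.08 in the TEAD4 samples, against 0.60 in the control. Nor did they in Hoxb, with 0.00 and -0.03, against 0.62.

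By gene medians over all windows, the highest were Hoxc10 (0.52 and 0.57 in the TEAD4 samples, against -0.08 in the control), Hoxa10 (0.28 and 0.68, against 0.10), Hoxc9 (0.39 and 0.49, against 0.71) and Hoxc6 (0.31 and 0.32, against -0.05). These stand at percentiles 97.9, 96.5, 96.4 and 94.8 of all genes by the median of the TEAD4 mean. With centred ratios both TEAD4 samples were above the control at Hoxc10, Hoxa10 and Hoxc6, and both were below it at Hoxc9. Hoxc10 and Hoxc6 differ from Hoxa10 in that the duplicates were nearly equal.

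**Figure D4:**
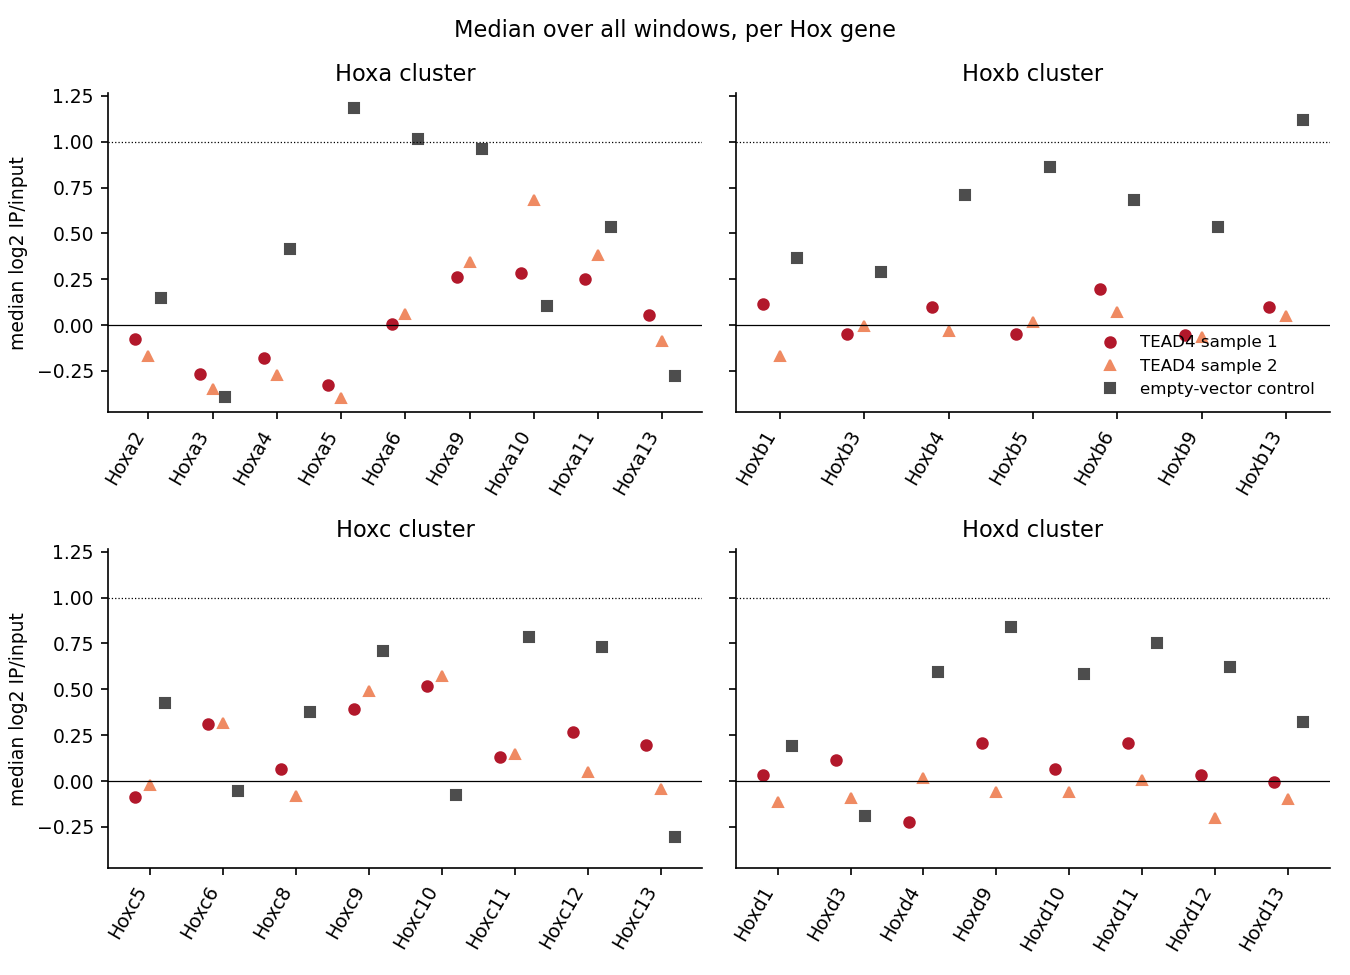
Median log2 IP over input over all windows of each Hox gene, for TEAD4 sample 1 (circle), TEAD4 sample 2 (triangle) and the control (square), 1 panel per cluster in order of gene number. The TEAD4 points of Hoxc10, Hoxa10, Hoxc9 and Hoxc6 are the highest by their mean (TEAD4 sample 2 alone is higher at Hoxa11 and Hoxa9 than at Hoxc6), and the control lies above both TEAD4 points at most genes, reaching 1.18 at Hoxa5.

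The empty-vector control, which measures the background of the antibody, was high at the Hox promoters, as it was over the array. All 32 genes had a control window at least 2-fold over input, where 85.6% of all genes and 90.8% of those with 22 to 67 windows did. With normexp background correction the number of Hox genes was 12, and without centring it was 29. The share of all genes was not taken under these settings, so these changes cannot be read as particular to Hox genes. By windows the share was 29.7% in the Hox clusters, against 26.4% on the whole array. The highest control window was at the start of Hoxd13, the gene of digit formation, with 0.56 and 0.11 in the TEAD4 samples, against 4.14 in the control, on chromosome 2 from 74468666 to 74469559. The window 384 bp downstream of the start of Hoxa13, its counterpart in the Hoxa cluster, had 0.31 and 0.28 in the TEAD4 samples, against 3.92 in the control. That 334 bp downstream of the start of Hoxd9, a limb and trunk gene, had 0.15 and -0.04 in the TEAD4 samples, against 3.92 in the control. Both TEAD4 samples were under 1.5-fold over input in these 3 windows.

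Over all Hox genes the control median was 1.09 within 500 bp of an annotated start, against 1.19 for all genes, and among the clusters it was highest there in Hoxd. The 36 Hoxd windows within 500 bp of a start had a median of 0.20 and -0.04 in the TEAD4 samples, against 2.23 in the control. Over all genes that position had 0.18 and 0.14 in the TEAD4 samples, against 1.19 in the control. In Hoxa this median was 0.11 and 0.05 in the TEAD4 samples, against 1.02 in the control. In Hoxb it was 0.24 and 0.00, against 0.77, and in Hoxc 0.33 and 0.17, against 0.94. The control in Hoxb was higher beyond that, with 1.17 at 500 to 2000 bp downstream of a start, where the TEAD4 samples had 0.08 and -0.01.

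With centred ratios, more Hox genes had a window at which TEAD4 was below the control than one at which it was above. Of the 32 genes, 5 had a window where each TEAD4 sample exceeded the control by 2-fold or more (15.6%, against 29.9% of all genes and 34.8% of those with 22 to 67 windows), and 30 had one at least 2-fold below it (93.8%, against 81.8% and 88.3%). By windows this was 24 of the 1282 above (1.87%, against 3.33%) and 306 below (23.9%, against 21.7%). These counts depended on the setting: the 30 below were 11 with normexp and 15 with the arrays scaled to a common spread, and the 5 above were 23 with uncentred ratios and 13 or 15 without 1 TEAD4 sample. The 5 were Hoxa10, Hoxc10, Hoxc13, Hoxd10 and Hoxd13. Over all 16509 genes, those below were 2389 with normexp and 5240 with the scaled arrays, against 13512 in the main setting. Those above were 12386 with uncentred ratios, against 4937. The number of Hox genes with a window 2-fold over input and also over the control in the duplicates was 0, against 422 of all genes (2.56%). In the limma test that follows, a gene takes its direction from its window with the smallest p, and other windows may go the other way. The test takes the spread of the TEAD4 duplicates for that of the 1 control sample, so its p does not measure the spread of the control. Hoxa10 was called lower there, though its median TEAD4 minus control was 0.27. The limma test of TEAD4 minus control called 1 Hox gene higher, Hoxc10 (adjusted p = 0.00488, 3.13% against 12.4% of all genes), and 29 lower (90.6%, against 81.0%). Far fewer Hox genes were called lower with the arrays scaled to a common spread or with quantile normalization. Shares of all genes called were not taken under these settings, so this fall cannot be read as particular to Hox genes.

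Where TEAD4 exceeded the control most, the control was below input. These windows were picked by that difference, and over all windows the control varied most (SD 1.04, against 0.38 and 0.40 in the TEAD4 samples). The largest differences thus tend to fall where the control is extreme. After the upstream block of Hoxa10 the largest differences were at Hoxc13, a gene of hair and nail, and at Hoxd13. The Hoxc13 window 1974 bp downstream of its start had 0.47 and 0.24 in the TEAD4 samples, against -1.31 in the control, a difference of 1.67. The Hoxd13 window at -5492 bp from its start had -0.02 and 0.17 in the TEAD4 samples, against -1.43 in the control, a difference of 1.51. In neither window did both TEAD4 samples reach 1.5-fold over input.

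The lowest differences, picked in the same way, were at promoters where the control was high. They were -3.87 at Hoxd9 and -3.80 at Hoxd13, in the windows given above, and -3.81 at Hoxa4. The Hoxa4 window, 498 bp downstream of its start, had 0.05 and -0.38 in the TEAD4 samples, against 3.64 in the control, on 3 probes. The median of TEAD4 minus control was -0.38 over Hoxa, -0.64 over Hoxb, -0.05 over Hoxc and -0.63 over Hoxd, with -0.26 over the whole array. The sign of these medians depended on the scaling: without centring they were 0.25, -0.08, 0.51 and 0.00, with 0.34 over the whole array.

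RefSeq promoters, from 250 bases before to 50 bases after a start on build GRCm38.p6, could be matched for 18 of the 32 genes, 20 promoters in all. They include no Hoxc gene, and of Hoxb only Hoxb1 and Hoxb4. The promoters of Hoxc9, Hoxc10 and Hoxc11 were thus not searched for the motif below. The sources used here do not name the build of the array's coordinates, so no array window was placed on these sequences. The TEAD motif GGAATG, or CATTCC on the other strand, was in 2 of the 20 Hox promoters (10%) and in 14.7% of 32851 promoters of the table. The median GC content was 58.7% in the Hox promoters, against 52.7% in all, and the median number of CpG was 20, against 7. The Hoxa10 promoters are shown because Hoxa10 had the highest TEAD4 mean of any member, at chr6:52234890-52235189 and chr6:52240805-52241104 on the minus strand, and neither holds the motif. The Hoxa9 promoter, at chr6:52227321-52227620 on the minus strand, and the Hoxd10 promoter, at chr2:74691641-74691940 on the plus strand, are shown because they hold it, with the motif in capitals. Its first base lies at -48 from the start in Hoxa9 and at 23 in Hoxd10. Each sequence is written 5′ to 3′ along its gene.
Hoxa10 promoter at 52234890: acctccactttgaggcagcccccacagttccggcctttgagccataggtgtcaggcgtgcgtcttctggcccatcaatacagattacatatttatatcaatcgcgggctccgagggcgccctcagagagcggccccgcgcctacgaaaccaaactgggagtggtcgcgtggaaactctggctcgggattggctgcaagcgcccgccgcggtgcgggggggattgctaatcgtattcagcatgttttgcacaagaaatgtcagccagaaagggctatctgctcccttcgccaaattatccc
Hoxa10 promoter at 52240805: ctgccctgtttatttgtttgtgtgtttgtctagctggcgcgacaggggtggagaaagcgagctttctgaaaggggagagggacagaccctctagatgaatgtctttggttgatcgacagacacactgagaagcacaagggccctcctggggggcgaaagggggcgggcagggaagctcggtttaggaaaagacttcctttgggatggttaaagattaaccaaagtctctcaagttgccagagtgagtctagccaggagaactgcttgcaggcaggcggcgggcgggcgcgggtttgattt
Hoxa9: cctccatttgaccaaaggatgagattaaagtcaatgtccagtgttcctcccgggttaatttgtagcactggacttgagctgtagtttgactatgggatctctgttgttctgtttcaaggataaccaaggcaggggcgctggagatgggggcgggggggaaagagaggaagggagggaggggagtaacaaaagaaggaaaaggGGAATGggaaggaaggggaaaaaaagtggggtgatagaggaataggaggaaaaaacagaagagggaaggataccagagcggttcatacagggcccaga
Hoxd10: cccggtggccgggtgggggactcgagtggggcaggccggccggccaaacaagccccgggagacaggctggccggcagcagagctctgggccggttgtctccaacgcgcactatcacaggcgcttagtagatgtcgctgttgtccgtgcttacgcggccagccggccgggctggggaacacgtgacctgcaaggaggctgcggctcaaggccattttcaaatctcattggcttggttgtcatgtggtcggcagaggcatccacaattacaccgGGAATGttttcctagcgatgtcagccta

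A further 3 lists of genes give the surroundings of these values. Of 30 genes beside the clusters, 6 (20%) passed the 2-fold rule over input: Calcoco1, Copz1, Hnrnpa3, Smug1, and Cbx3 with Hnrnpa2b1, which share 1 window. Calcoco1, a transcriptional co-activator gene near Hoxc, had 1.52 and 1.20 in the TEAD4 samples, against -1.24 in the control, and Copz1, a vesicle coat gene near Hoxc, had 1.19 and 1.53, against -0.11. Hnrnpa3, an RNA-binding protein gene on the chromosome of Hoxd, had 1.34 and 1.03 in the TEAD4 samples, against -0.71 in the control. With centred ratios both TEAD4 samples were well above input in these 3 windows, and the control was below it. That was so in none of the best windows of the 4 Hox genes over 2-fold. This contrast depends on the centring of the control: its median over Hoxc was -0.24 without centring, against 0.32 with it. Smug1, a DNA repair gene near Hoxc, had 1.19 and 1.04 in the TEAD4 samples, against 1.15 in the control. The window of Cbx3, a heterochromatin protein gene, and Hnrnpa2b1, an RNA-binding protein gene, had 1.01 and 1.15, against 2.90. The limma test against input called 16 of the 30 higher (53.3%, against 24.0% of all genes) and 2 lower (6.67%, against 11.8%).

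Of 38 measured cofactors and regulators of Hox genes, 3 passed the 2-fold rule over input (7.89%): the cofactor Meis2 (1.19 and 1.35 in the TEAD4 samples, against 1.53 in the control), the histone demethylase Kdm6b (1.23 and 1.14, against 0.73) and the retinoic acid receptor Rara (1.27 and 1.00, against 1.02). The limma test called 14 of them higher (36.8%, against 24.0% of all genes) and 2 lower (5.26%, against 11.8%). Of 82 other developmental homeobox genes, 0 passed the 2-fold rule, against 5.20% of all genes. The test called 10 of them higher (12.2%) and 11 lower (13.4%). The median of the best windows was 0.44 over the Hox genes, against 0.70 beside the clusters, 0.58 for the cofactors, 0.38 for the other homeobox genes and 0.40 for all genes.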

How the data were processed

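Per the file headers, the authors extracted the deposited intensity values with version 9.5.3.1 of Agilent Feature Extraction, as signals of Cy5 (IP) and Cy3 (input), background-subtracted and scaled per dye. The deposited log10 ratios of IP over input served, not centred, as an alternative. The log2 ratio of IP over input was taken from the intensities, minus the median of its array, leaving out control spots, unplaced probes and non-uniform spots. The sources used here name no genome build for the probes. Distances are those of the array annotation. Symbols were updated through a RefSeq table (16459 by accession, 207 by symbol, 117 by synonym, 57 kept).

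limma 3.58.1 in R 4.3.3 was fitted to all windows of a design over the 3 samples, TEAD4 against 0 and TEAD4 minus control, with a Simes p per gene and Benjamini-Hochberg adjustment over 16509 genes, two-sided, threshold 0.05. The fit had 1 residual degree of freedom beside 13.3 and 13.9 prior ones on designs 1 and 2, and it took the spread of the TEAD4 duplicates for that of the 1 control sample. Without that assumption an exact permutation test of 2 samples against 1 cannot go below p = 0.333. The direction of a call is the sign in the gene's window with the smallest p. The rules of size carry no test. The fit was also run on simulated data, with noise of the size of the duplicates' spread in all 3 samples. That run does not check the fit for a control of wider spread.

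Members, lists and tests were chosen with earlier results of these data known. Named in full were, per cluster, the 3 genes with the highest and the 2 with the lowest best window, every gene 2-fold over input in both TEAD4 samples, the 3 with the highest control window, the 3 at either end of TEAD4 minus control, and list members passing the 2-fold rule. Hoxa9, Hoxc6, Hoxc12 and the call at Hoxd1 were named after their values were seen. The alternatives tried were normexp background correction (offset 50), loess, scaling, quantile normalization, other centring, window widths and minimums, a filter on dim probes, distance, nearest start, leaving out a TEAD4 sample, and other fold thresholds. Of the members 1, and of the cofactor list 1 gene, are not reported here and enter no count of Hox or list genes. The number of arrays limits the precision.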

Additional observations from a re-analysis of the deposited data

How the results depend on the processing

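No paired analysis was possible because the control is a single sample with no replicate number in the labels. Main counts of the 32 Hox genes were 4 with a window 2-fold over input in both TEAD4 samples, 5 above and 30 below the control, 32 with a control window 2-fold over input, 9 higher and 1 lower than input by limma, and 1 higher and 29 lower than the control by limma. Normexp background correction gave 1 over input, 3 above and 11 below the control, 12 in the control, 0 lower than input and 9 lower than the control by limma. Its control medians were 0.18, -0.012, -0.13 and 0.13 in Hoxa, Hoxb, Hoxc and Hoxd, and TEAD4 minus control was -0.059, 0.11, 0.44 and -0.20. Loess gave 11 above the control, 2 higher than it by limma and 5 lower than input, with TEAD4 minus control of -0.11 in Hoxa and -0.32 in Hoxd and a control median of 0.23 in Hoxd. Scaling to a common median absolute deviation gave 8 over input, 15 below the control, and 0 higher and 0 lower than it by limma. The medians of TEAD4 minus control were then -0.092, -0.31 and -0.34 in Hoxa, Hoxb and Hoxd, and those of the control 0.24, 0.29 and 0.23. Quantile normalization gave 12 over input, 12 above and 16 below the control, and by limma 15 higher than input, 2 higher and 1 lower than the control. TEAD4 minus control was then 0.073, -0.15, 0.35 and -0.19 in Hoxa to Hoxd, the control median 0.22, 0.28 and 0.23 in Hoxa, Hoxb and Hoxd, and the TEAD4 median 0.45 in Hoxc. Centring windows on their own median gave 16 above the control and 2 higher by limma, TEAD4 minus control of -0.092, -0.40, 0.20 and -0.34, and control medians of 0.24 in Hoxa and 0.21 in Hoxd. The uncentred deposited ratios gave 23 above the control, 11 higher than it and 2 lower than input by limma. Their TEAD4 minus control was 0.25, -0.083, 0.51 and 0.0015, and their control medians -0.12, 0.10, -0.24 and -0.15. The median of TEAD4 minus control over all windows was -0.26, and 0.01, -0.15, -0.18, -0.01, 0.00 and 0.34 under these 6 settings in order. Of all 16509 genes, 859 were over input in the main setting, and 613, 888, 2522, 4608, 891 and 858 under the 6. Above the control were 4937, and 1512, 4694, 2065, 4505, 8537 and 12386. Below it were 13512, and 2389, 11181, 5240, 5082, 12081 and 10003. Counts of all genes over input in the control, and of all genes called by limma, were taken in the main setting only. Windows of 1000 bp on each side gave 2 over input, 3 above the control, 5 higher than it and 2 lower than input by limma. At least 5 probes gave 2 over input and 2 lower by limma, and the nearest start gave 2 lower by limma. Windows within 2000 bp of a start gave 2 above the control and 2 higher by limma, control medians of 0.94, 0.67 and 1.09 in Hoxa, Hoxc and Hoxd, and TEAD4 minus control of -0.76 in Hoxa and -1.11 in Hoxd. At 1.5-fold 10 genes were over input and 21 above the control, and at 3-fold 0 and 1. Leaving out 1 TEAD4 sample gave 5 to 7 over input and 13 to 15 above the control: without TEAD4 replicate 1 these were 7 and 13, without TEAD4 replicate 2 they were 5 and 15, and a rule over 1 sample asks less than one over both. Of 252 values under alternatives, 168 stayed within 1.5 times the main count or, for medians, within 0.238 of the main value, and 84 moved. The limit of 0.238 is the larger of the SDs that limma pooled over the windows of each array design. The cause of each change was not tested. The filter on dim probes changed no count.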

Other observations

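The 5 cluster genes that the annotation lists by accession but not by symbol could be read from their neighbours' probes. Hoxa7 was listed on 36 probes of Hoxa5, Hoxa6 and Hoxa9, Hoxb7 on 30 of Hoxb6, Hoxd8 on 11 of Hoxd9, Hoxb8 on 9 of Hoxb6 and Hoxb2 on 8 of Hoxb1. The number of their windows at least 2-fold over input in both TEAD4 samples was 0 for each. Their best TEAD4 means were 0.86 for Hoxa7, 0.72 for Hoxb7 and Hoxb8, 0.36 for Hoxd8 and -0.06 for Hoxb2, against highest control windows of 2.98 for Hoxa7, 2.28 for Hoxb7, 0.73 for Hoxb8, 1.38 for Hoxd8 and 1.58 for Hoxb2. These probes lie up to 13303 bp from the starts of those genes, so they bear on the promoters of the neighbours first.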
